A study of Arabidopsis thaliana with 12 samples.

Results

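Leaf transcripts of Col(gl) plants grown without salt were compared with those of Col plants grown at 100 mM NaCl, to show which features of the salt state of Col were already present in unsalted Col(gl) and which were missing. The members were all probe sets of the array except the manufacturer's controls, 22746 of 22810, measured on 4 of the 12 arrays of the study: 2 of Col(gl) at 0 mM NaCl and 2 of Col at 100 mM NaCl. A further 2 arrays, of Col at 0 mM NaCl, gave the level from which salt moved Col. The study grew the Arabidopsis thaliana genotypes Ws, Col and Col(gl) in soil with and without NaCl and hybridised leaf RNA to Affymetrix arrays, with 2 biological replicates for each genotype and salt level and 1 array for each replicate. All plants were harvested 20 days after sowing, when NaCl, raised in steps to its final concentration, had been given for 6 days to the salted plants. The labels name Col(gl) only as a genotype and do not say what sets it apart from Col, nor how many plants were pooled for a replicate. Genotype and salt both differ between the 2 groups, so their parts in a difference cannot be told apart in it. For many genes the level in unsalted Col is therefore given as well. A difference given without it cannot be placed against that level.

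Salt around the roots lowers the water potential of the soil and loads the leaves with sodium and chloride. Leaves respond with abscisic acid signalling, which raises dehydrins and other late embryogenesis abundant (LEA) proteins, with calcium-dependent and transcriptional stress signalling, and with slower growth that goes along with a changed cell wall. Growth, defence and photosynthesis genes are commonly lowered at the same time.

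Values are log2 RMA signals (1 unit is 2-fold), listed as replicate 1 and replicate 2, and each difference is a fitted log2 difference ± its standard error with 2 arrays a group. A probe set was called higher or lower at a Benjamini-Hochberg adjusted p under 0.05 in a limma fit over all 12 arrays. The number of arrays limits the precision, and at 2 arrays a group a difference that was not called may still exist. Array medians lay between 6.15 and 6.38 and lower quartiles between 4.19 and 4.42. A signal at or under 4.42 was taken as not shown to be above background, and a difference from such a group is a lower bound. The replicates correlated at 0.984 in salted Col and 0.996 in unsalted Col(gl), with pooled standard deviations of 0.297 and 0.137. Replicate 1 of salted Col stood apart. The median signal of plastid-encoded probe sets was 9.48 on it against 11.37 on replicate 2, 10.34 and 10.35 in unsalted Col(gl) and 11.54 and 11.39 in unsalted Col. The 3′ minus 5′ signal of actin, a measure of RNA integrity, was 3.68 on it against 2.47 to 2.69 on the other 3 arrays compared. Results that this array decided are given with and without it, and the part of plastid RNA and RNA quality in the others was not tested. The leaf label fits the strong signal of photosynthesis genes, with RCA (Rubisco activase, AT2G39730) at 13.76 and 13.75 in salted Col and 13.84 and 13.79 in unsalted Col(gl). The meristem gene CLV3 (AT2G27250) was at or under background on all 6 arrays, and the root-hair expansins EXPA7 (AT1G12560) and EXPA18 (AT1G62980) lay between 4.16 and 4.87. PYK10 (AT3G09260), the other of the 3 measured genes on the root list, went the other way. It was well above background in salted Col and at least 5.11 lower in unsalted Col(gl), as described below.

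Across the array, 6823 probe sets (30.0%) were called between unsalted Col(gl) and salted Col, 3265 higher in unsalted Col(gl) (14.4%) and 3558 lower (15.6%). Of these, 611 were at least 2-fold higher (2.69% of all) and 1114 at least 2-fold lower (4.90%). Salt itself moved 8529 probe sets in Col (37.5%), 3733 up (16.4%) and 4796 down (21.1%), of which 1681 (7.39% of all) and 928 (4.08%) moved at least 2-fold. Unsalted Col(gl) differed from unsalted Col in 5417 (23.8%), 2342 higher (10.3%) and 3075 lower (13.5%), with 1131 (4.97% of all) and 1083 (4.76%) at least 2-fold apart. These 3 comparisons share arrays in pairs, so their counts and values are set side by side and not tested against each other. Counts of called members of the gene lists below are to be read beside the shares of all probe sets given here. The median difference over all probe sets was 0.07 between unsalted Col(gl) and salted Col, -0.13 for salt in Col and -0.04 between the unsalted genotypes. The count of 6823 depended on single arrays. It was 3868 without replicate 1 of salted Col, 3330 without replicate 1 of unsalted Col(gl) and 3695 without its replicate 2.

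**Figure D1:**
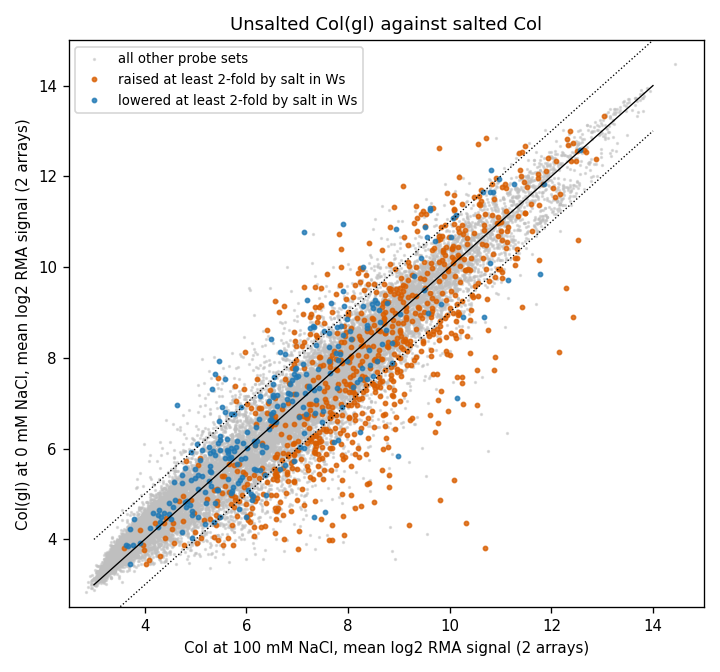
Mean log2 RMA signal of each probe set in salted Col (x axis, 2 arrays) against unsalted Col(gl) (y axis, 2 arrays), with probe sets that salt raised or lowered at least 2-fold in Ws in colour; the solid line marks equal signal and dotted lines a 2-fold difference. Most probe sets lie between the dotted lines, and more of the genes raised by salt in Ws lie below the lower dotted line (interval wholly below for 139) than above the upper one (48).

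To choose salt genes without the Col and Col(gl) arrays, the response of Ws was used: 785 probe sets were called and raised at least 2-fold by salt in Ws, and 257 were lowered as much. The Ws choice is not free of what set replicate 1 of salted Col apart. Replicate 1 of salted Ws had a plastid-encoded median of 8.73 against 11.22 on its replicate 2, and an actin 3′ minus 5′ signal of 3.70 against 2.56. Both replicate 1 arrays deviated from their group means together (r = 0.697 over probe sets), and all groups share the fitted variance. The part of these arrays in the choice was not tested. Of the 785 raised in Ws, unsalted Col(gl) was called lower than salted Col in 361 (46.0%), higher in 153 (19.5%) and neither in 271, against 15.6% lower and 14.4% higher among all probe sets, and the median difference was -0.53. The 95% interval lay wholly within 2-fold for 251 of them (32.0%, against 77.5% of all probe sets), more than 2-fold lower for 139 and more than 2-fold higher for 48. The corresponding shares of all probe sets were 1.54% and 1.15%. The same 785 had median differences of 1.52 for salt in Col and 0.78 between unsalted Col(gl) and unsalted Col. Their median level was 6.58 and 6.55 on the unsalted Col arrays, 7.92 and 7.96 on those of unsalted Col(gl) and 8.34 and 8.48 on those of salted Col. Unsalted Col(gl) thus lay between the other groups, without overlap of these medians.

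Of the 257 genes that salt lowered in Ws, unsalted Col(gl) was called higher than salted Col in 79 (30.7%), lower in 48 (18.7%) and neither in 130, with a median difference of 0.23. Among all probe sets 14.4% were higher and 15.6% lower, so the share called lower was near that of the array. The interval lay within 2-fold for 120 (46.7%, against 77.5% of all probe sets), more than 2-fold above for 18 and more than 2-fold below for 11. Their median difference was -1.37 for salt in Col and -1.17 between unsalted Col(gl) and unsalted Col. The raised and lowered genes were not tested against each other.

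**Figure D2:**
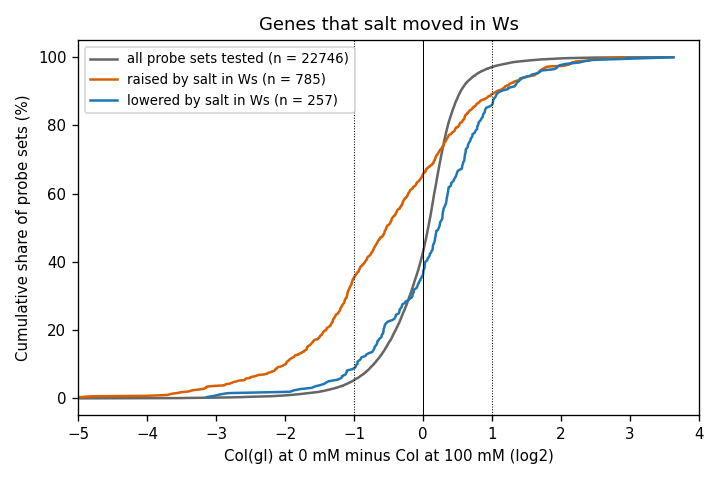
Cumulative share of probe sets (y axis, %) by the log2 difference of unsalted Col(gl) minus salted Col (x axis), for all 22746 probe sets and for those that salt raised (785) or lowered (257) at least 2-fold in Ws; dotted lines mark 2-fold. The curve of the raised genes is shifted to the left (median -0.53), and that of the lowered genes to the right (median 0.23).

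All 6 measured members of the abscisic acid and dehydration list were raised by salt in Col, and 5 of the 6 were higher in unsalted Col(gl) than in unsalted Col. Against salted Col, 2 were higher, 2 lower and 2 not called, with a median of 0.13. COR15A (AT2G42540), a cold-regulated protein of the chloroplast that protects membranes during dehydration, had signals of 11.77 and 11.65 in unsalted Col, 12.31 and 12.47 in salted Col and 12.45 and 12.22 in unsalted Col(gl). Its unsalted Col(gl) and salted Col arrays overlapped, and the difference was -0.06 ± 0.18 with a 95% interval of -0.46 to 0.34. The dehydrin COR47 (AT1G20440) likewise overlapped, at 9.81 and 9.73, 10.35 and 11.32 and 11.26 and 11.05 in the same order of groups, and differed by 0.32 ± 0.28 (interval -0.31 to 0.96). COR15B (AT2G42530), the close relative of COR15A, was above its salted level, at 11.72 and 11.76 against 11.15 and 11.05, a difference of 0.64 ± 0.14 (adjusted p = 0.00975). Without replicate 2 of unsalted Col(gl) this difference was 0.62 and was not called (adjusted p = 0.0562).

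Of the other members, LTI30 and LEA4-5 were lower than in salted Col. LTI30 (AT3G50970), a dehydrin that binds membranes, was at 6.19 and 5.85 in unsalted Col, 8.65 and 8.58 in unsalted Col(gl) and 10.34 and 11.18 in salted Col. The 3 groups did not overlap, and unsalted Col(gl) was 2.60 ± 0.32 above unsalted Col and 2.15 ± 0.32 below salted Col (adjusted p = 0.00135). The LEA protein gene LEA4-5 (AT5G06760) stayed at its unsalted level, with 5.47 and 5.02 in unsalted Col(gl) and 6.04 and 5.66 in unsalted Col against 8.03 and 8.80 in salted Col. It was 3.17 ± 0.36 lower than in salted Col (adjusted p = 0.000306). The LEA-type gene AT3G02480, which is not on the list, gave the lowest difference of all named genes. Its signals were 10.12 and 10.55 in salted Col, 4.39 and 4.31 in unsalted Col(gl) and 4.21 and 3.59 in unsalted Col, and unsalted Col(gl) was at least 63-fold lower (-5.98 ± 0.24 log2 units, adjusted p = 5.13e-06). Salt also raised it in Ws, by 7.15 ± 0.24. Of genes singled out after their values were seen, the drought-induced DI21 (AT4G15910) was 2.20 ± 0.15 lower and at its unsalted Col level (6.60 and 6.52 against 6.49 and 6.48). ALDH7B4 (AT1G54100), a stress-induced aldehyde dehydrogenase, was lower in unsalted Col(gl) (9.19 and 9.05) than in both salted Col (11.12 and 11.74) and unsalted Col (10.37 and 10.15). The member of the list that was furthest above salted Col, COR27, is described with the clock gene GI below.

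**Figure D3:**
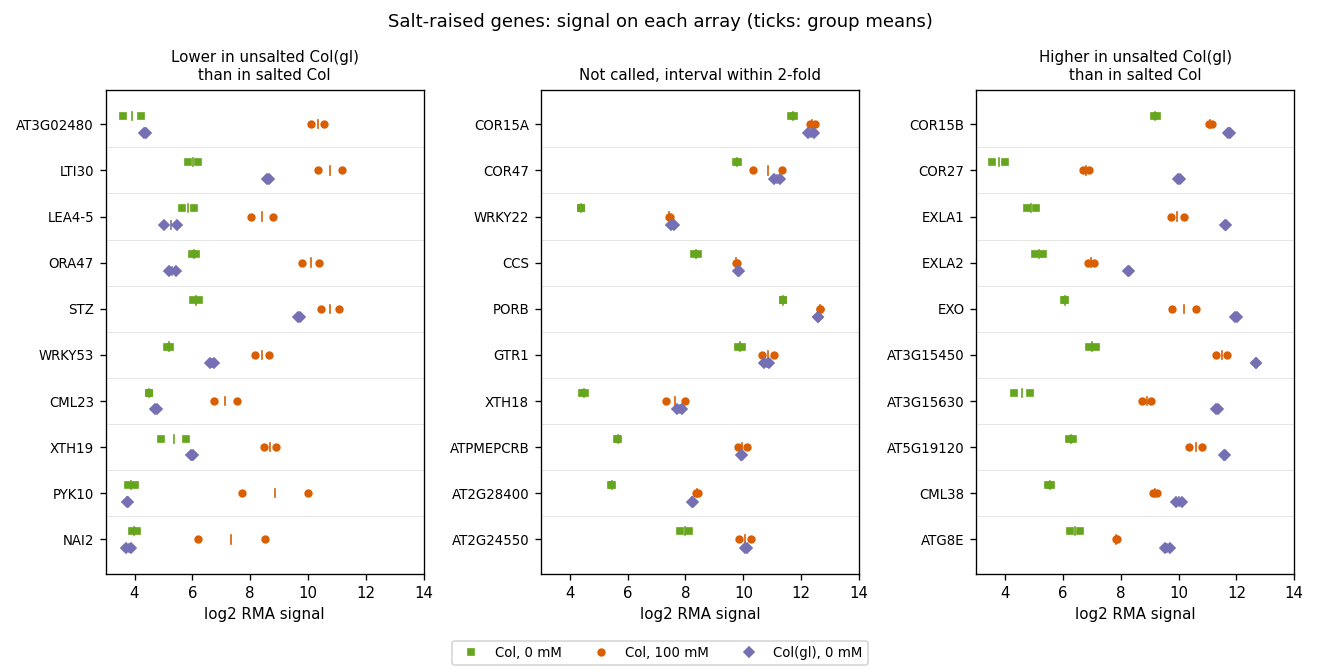
Log2 RMA signal (x axis) of 30 genes higher in salted than in unsalted Col, 1 row per gene, with each array as a point and the group mean as a tick. In the left panel unsalted Col(gl) lies below salted Col (AT3G02480 at 4.39 and 4.31 against 10.12 and 10.55), in the middle panel it lies at the salted level (ATPMEPCRB at 9.95 and 9.90 against 10.12 and 9.82), and in the right panel higher than salted Col (EXLA1 at 11.65 and 11.60 against 9.72 and 10.19).

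Among transcription factors, WRKY22 (AT4G01250), a factor of pathogen-triggered kinase signalling and of dark-induced senescence, was at 4.37 and 4.38 in unsalted Col, 7.46 and 7.43 in salted Col and 7.62 and 7.50 in unsalted Col(gl). The difference from salted Col was 0.11 ± 0.16 (interval -0.25 to 0.48). Both groups lay about 3 units or more above unsalted Col, which was not above background. WRKY53 (AT4G23810), a regulator of leaf senescence, was intermediate, at 6.76 and 6.60 between unsalted (5.23 and 5.13) and salted Col (8.16 and 8.64), and 1.72 ± 0.20 below the latter (adjusted p = 0.000391). Of the 6 measured WRKY genes, 1 was higher than in salted Col (WRKY47 (AT4G01720), by 0.54 ± 0.18), 1 was lower (WRKY53) and 4 were not called, where 30.0% of all probe sets were called. Of those 4, only WRKY6 (AT1G62300) had an interval that was not within 2-fold (-1.18 to 0.44). The call for WRKY47 was lost when any of 9 arrays was left out, with differences of 0.29 to 0.70.

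Both measured rapid stress regulators were lower than in salted Col. ORA47 (AT1G74930), an AP2/ERF factor that activates jasmonate synthesis genes, was at 5.44 and 5.18 in unsalted Col(gl), against 6.12 and 5.97 in unsalted and 9.80 and 10.38 in salted Col. It was below both groups on each array, and 27.4-fold lower than in salted Col (-4.78 ± 0.47, adjusted p = 0.000162). STZ (AT1G27730), a zinc-finger repressor induced by salt, had most of its salt-induced level, with 9.66 and 9.71 in unsalted Col(gl), 6.02 and 6.22 in unsalted and 10.45 and 11.08 in salted Col. Its difference from salted Col, -1.08 ± 0.33 (adjusted p = 0.0355), was not called when any of 7 arrays was left out (differences of -1.11 to -0.76), namely either unsalted Col, unsalted Col(gl) or salted Col(gl) array or replicate 2 of salted Col.

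Of 7 measured calmodulin-like genes, which encode calcium-binding sensor proteins, 3 were higher than in salted Col, 2 lower and 2 not called, with a median of 0.36. Over all probe sets 30.0% were called. CML38 (AT1G76650) was at 5.50 and 5.59 in unsalted Col, 9.26 and 9.12 in salted Col and 9.93 and 10.10 in unsalted Col(gl). It was thus 4.47 ± 0.18 higher in unsalted Col(gl) than in unsalted Col and 0.82 ± 0.18 higher than in salted Col (adjusted p = 0.00794, and 0.058 without replicate 2 of unsalted Col(gl), where the difference was 0.73). CML23 (AT1G66400) was the reverse case, at 4.79 and 4.71 in unsalted Col(gl), close to unsalted Col (4.51 and 4.49) and 2.39 ± 0.24 below salted Col (7.53 and 6.74; adjusted p = 0.000198). CML37 (AT5G42380) was at least 1.38 ± 0.18 lower. CML42 (AT4G20780), known for roles in trichome branching and in defence against insects, and CML30 (AT2G15680) were not called for salt in Col, but were higher in unsalted Col(gl) than in salted Col by 2.65 ± 0.20 and 1.50 ± 0.23. CML42 was at 9.28 and 9.22 in unsalted Col(gl), 6.58 and 6.63 in salted and 6.45 and 6.76 in unsalted Col.

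The list of expansins, xyloglucan enzymes and pectin enzymes had 31 measured members, of which salt raised 8 and lowered 10 in Col. Against salted Col, unsalted Col(gl) was higher in 7 and lower in 5, and 19 were not called, where 30.0% of all probe sets were called, with 16 of all 31 having an interval within 2-fold. The median was 0.14, and 10 of the 12 calls were made with each array left out in turn. Of the 7 higher, EXPA18 (difference 0.55) lay near background, as given above. EXLA1 (AT3G45970), an expansin-like protein, was at 5.06 and 4.76 in unsalted Col, 9.72 and 10.19 in salted Col and 11.65 and 11.60 in unsalted Col(gl). Without any salt, Col(gl) was 1.67 ± 0.21 above the salted level of Col (adjusted p = 0.000498) and 6.72 ± 0.21 above unsalted Col. EXLA2 (AT4G38400) followed the same order, with 5.04 and 5.31, 6.88 and 7.08 and 8.28 and 8.24, and was 1.28 ± 0.18 above salted Col (adjusted p = 0.00102). The third member of the family, EXLA3 (AT3G45960), was raised by salt by 0.75 ± 0.23 and differed by -0.02 ± 0.23 (interval -0.54 to 0.51) between unsalted Col(gl) and salted Col. EXO (AT4G08950), a brassinosteroid-induced extracellular growth protein, was at 6.05 and 6.07, 9.76 and 10.61 and 12.01 and 11.95, and was 1.79 ± 0.24 above salted Col (adjusted p = 0.00073).

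The pectin methylesterase gene ATPMEPCRB (AT4G02330) and the xyloglucan endotransglucosylase/hydrolase gene XTH18 (AT4G30280) were at the salted level. ATPMEPCRB was at 5.63 and 5.68 in unsalted Col, 10.12 and 9.82 in salted Col and 9.95 and 9.90 in unsalted Col(gl), where both arrays lay between the salted Col arrays. The difference was -0.05 ± 0.12 (interval -0.32 to 0.22), while salt moved it by 4.32 ± 0.12 in Col. XTH18 was at 4.54 and 4.42, 7.97 and 7.31 and 7.72 and 7.87 and differed by 0.16 ± 0.18 (interval -0.25 to 0.56). Without replicate 1 of salted Col the difference was 0.48 and was called (adjusted p = 0.0359). XTH19 (AT4G30290), the next protein-coding gene to XTH18 in the TAIR10.1 annotation of RefSeq, was raised by salt in Col by 3.33 ± 0.29 but stayed near its unsalted level in Col(gl), at 6.03 and 5.96 against 5.78 and 4.93 in unsalted and 8.90 and 8.47 in salted Col. It was 2.69 ± 0.29 below salted Col (adjusted p = 0.00026). XTH33 (AT1G10550) was not called for salt in Col (0.31 ± 0.33) and was 2.12 ± 0.33 higher in unsalted Col(gl) than in salted Col, at 7.59 and 7.53 against 5.29 and 5.59. Salt raised it by 2.40 ± 0.33 in Ws.

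Of the expansins that salt lowered in Col, some lay further down in unsalted Col(gl) and others did not. EXPA4 (AT2G39700) was at 9.79 and 9.72 in unsalted Col, 8.47 and 8.67 in salted Col and 7.91 and 7.94 in unsalted Col(gl), 0.64 ± 0.11 below salted Col (adjusted p = 0.00348). The hydrolase gene XTH32 (AT2G36870) was 0.69 ± 0.13 below salted Col, and EXPA15 (AT2G03090) and EXPB3 (AT4G28250), which salt did not move by the test, were 1.53 ± 0.24 and 1.04 ± 0.21 below it. EXPA16 (AT3G55500) went the other way, lowered by salt by 2.03 ± 0.30 and 1.25 ± 0.30 above salted Col in unsalted Col(gl), a call that was lost without replicate 1 of salted Col or either unsalted Col(gl) array (0.74 to 1.28). EXPA8 (AT2G40610) and EXPB1 (AT2G20750) had lower means, but their differences of -1.03 ± 0.41 and -0.84 ± 0.30 were not called (adjusted p = 0.0841 and 0.062). Among wall polymer genes, CSLA03 (AT1G23480), a mannan synthase gene, was 1.15 ± 0.16 above salted Col, and CSLA01 (AT4G16590), its relative, was 1.43 ± 0.31 below it. CSLA03 was at 8.77 and 8.97 against 7.64 and 7.81 and CSLA01 at 7.59 and 7.68 against 8.62 and 9.50, in neither case with overlap. The call for CSLA01 was lost without replicate 1 of unsalted Col(gl) (difference -1.38, adjusted p = 0.0582). CCR2 (AT1G80820), a cinnamoyl-CoA reductase of lignin synthesis, was 1.58 ± 0.14 below salted Col and 0.79 ± 0.14 below unsalted Col. The list of cellulose and lignin genes held 10 members, 2 higher, 4 lower and 4 not called, with a median of -0.20, against 30.0% of all probe sets called.

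Of 4 measured receptor-like kinase genes 1 was called, higher than in salted Col. This was the receptor kinase THE1 (AT5G54380), which monitors cell-wall integrity and was at 7.71 and 7.30 in unsalted Col, 8.35 and 8.78 in salted Col and 9.94 and 9.72 in unsalted Col(gl), 1.27 ± 0.19 above salted Col (adjusted p = 0.00144). Its relative FER (AT3G51550), the receptor of RALF peptides, was raised by salt by 0.69 ± 0.12 and differed by 0.27 ± 0.12 (interval -0.01 to 0.55), which was not called. The RALF peptide genes RALFL22 and RALFL33 (AT4G15800), singled out after their values were seen, were 1.15 ± 0.10 and 1.06 ± 0.14 above salted Col. RALFL22 was at 10.55 and 10.50 against 9.35 and 9.39 and 8.16 and 8.15 in unsalted Col, so that salt and the unsalted Col(gl) state both lay above unsalted Col.

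Salt-raised loci with no symbol, and a few genes of energy and carbon status, were also above the salted level. AT3G15450, AT5G19120 and AT3G15630 were raised by salt in Ws and in Col. AT3G15450 was at 6.88 and 7.15 in unsalted Col, 11.30 and 11.68 in salted Col and 12.66 and 12.69 in unsalted Col(gl), 1.19 ± 0.18 above salted Col (adjusted p = 0.00168). AT5G19120 was at 6.21 and 6.36, 10.36 and 10.81 and 11.59 and 11.55, a difference of 0.98 ± 0.22 that was called in the full fit (adjusted p = 0.00891) but not without replicate 1 of salted Col or replicate 1 of unsalted Col(gl) (0.76 and 0.97). AT3G15630 was at 4.88 and 4.32, 9.06 and 8.74 and 11.31 and 11.35, and its difference of 2.43 ± 0.26 was larger (adjusted p = 0.000229). In these 3 genes salt raised Col by 4.30 to 4.47 and unsalted Col(gl) exceeded unsalted Col by 5.28 to 6.73. AKINBETA1 (AT5G21170), a subunit of the energy-sensing kinase SnRK1, and the vacuolar sugar transporter TMT1 (AT1G20840), both singled out after their values were seen, were 1.34 ± 0.23 and 1.21 ± 0.18 above salted Col. The list of sugar and carbon status genes held 4 measured members, 1 higher, 2 lower and 1 not called, and none of its 3 calls was made with each array left out in turn.

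The autophagy list held 9 genes of the ATG8 family, whose products coat the forming autophagosome, and ATG3 (AT5G61500). Of these 10, 2 were higher, 2 lower and 6 not called, with a median of 0.02, where 30.0% of all probe sets were called. ATG8E (AT2G45170) was at 6.58 and 6.24 in unsalted Col, 7.84 and 7.86 in salted Col and 9.69 and 9.54 in unsalted Col(gl), 1.77 ± 0.18 above salted Col (adjusted p = 0.000174). ATG8H (AT3G06420) was raised by salt by 1.05 ± 0.14 but was 0.72 ± 0.14 below the salted level in unsalted Col(gl), at 6.66 and 6.86 against 7.44 and 7.51 (adjusted p = 0.00478). ATG8B (AT4G04620) was 0.73 ± 0.10 below salted Col and also below unsalted Col, by 0.39 ± 0.10. ATG8D (AT2G05630) was 0.51 ± 0.11 above salted Col, a call that was lost without replicate 1 of salted Col or replicate 1 of unsalted Col(gl) (0.44 and 0.47).

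Both measured genes of the list on the circadian clock were above salted Col. COR27 (AT5G42900), a cold- and clock-regulated repressor that is also on the dehydration list, was at 4.0 and 3.57 in unsalted Col, 6.71 and 6.90 in salted Col and 10.05 and 9.98 in unsalted Col(gl). Salt raised it by at least 3.02 ± 0.20 in Col, and unsalted Col(gl) was 3.21 ± 0.20 higher still (adjusted p = 1.84e-05). In Ws its salt response was 0.08 ± 0.20. GI (AT1G22770), GIGANTEA, was 0.55 ± 0.17 above salted Col (adjusted p = 0.0327), a call that was lost when any of 5 arrays was left out (both unsalted Col(gl) and both salted Col(gl) arrays and replicate 1 of salted Col), with differences of 0.34 to 0.59. AT4G33980 was at 4.45 and 4.24, 5.76 and 6.32 and 9.46 and 9.61, 3.49 ± 0.17 above salted Col, and like COR27 had no called salt response in Ws (-0.05 ± 0.17).

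Of the genes that salt lowered in Col, one set was already low in unsalted Col(gl). AT2G15020 was at 9.40 and 9.36 in unsalted Col, 4.68 and 5.40 in salted Col and 5.35 and 4.87 in unsalted Col(gl), and the last 2 groups overlapped (difference 0.06 ± 0.41, interval -0.85 to 0.98). AT2G27420 was at 9.10 and 9.39, 4.85 and 5.57 and 4.75 and 4.86 (difference -0.40 ± 0.50, interval -1.53 to 0.72). AT2G21560 was at 7.18 and 7.00, 4.56 and 4.50 and 4.66 and 4.24 (difference -0.07 ± 0.21, interval -0.54 to 0.39). AT1G11700 and AT5G66740 gave the same picture, with differences of 0.28 ± 0.37 and 0.02 ± 0.17 against salt responses of -2.78 ± 0.37 and -2.40 ± 0.17 in Col. AT5G66740 was under 4.42 in both groups, which sets no order between them and makes the size of its salt response a lower bound. HAT2 (AT5G47370), an auxin-induced homeodomain factor, was at 8.60 and 8.51, 6.97 and 7.18 and 7.22 and 7.23 (difference 0.15 ± 0.15, interval -0.19 to 0.49). JMT (AT1G19640), which methylates jasmonic acid, was at 8.49 and 8.26, 6.45 and 6.91 and 6.75 and 7.06 (difference 0.23 ± 0.18, interval -0.18 to 0.63). In both the salted Col and unsalted Col(gl) arrays lay at least 1 unit below unsalted Col. The lignin-pathway acyltransferase HCT (AT5G48930) and BCAT4 (AT3G19710), an aminotransferase of methionine-derived glucosinolate synthesis, were lowered by salt by 0.82 ± 0.13 and 0.82 ± 0.13 and differed by -0.05 ± 0.13 and 0.11 ± 0.13 between unsalted Col(gl) and salted Col.

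Of 5 measured flavonoid and anthocyanin genes, 3 were lower than in salted Col, none was higher and 2 were not called, and the median was -1.41. The 3 calls were made with each array left out in turn. UGT78D2 (AT5G17050), a flavonoid 3-O-glucosyltransferase, was at 10.57 and 10.65 in unsalted Col, 8.83 and 8.88 in salted Col and 7.36 and 7.35 in unsalted Col(gl), 1.50 ± 0.15 below salted Col (adjusted p = 0.000198). UF3GT (AT5G54060), an anthocyanin glycosyltransferase, was at 10.51 and 10.52, 8.55 and 9.25 and 7.49 and 7.48, 1.41 ± 0.21 below salted Col. UGT78D1 (AT1G30530), a flavonol rhamnosyltransferase, had no called salt response in Col (-0.23 ± 0.22) but was 1.75 ± 0.22 below salted Col (adjusted p = 0.000578). DFR (AT5G42800), dihydroflavonol reductase, was at 9.50 and 9.43 against 10.47 and 10.21 in salted Col, without overlap, but its difference of -0.88 ± 0.62 was not called (adjusted p = 0.299). UGT78D3, the remaining gene on the list, had its only positive difference, 0.48, and was not called. CHIL (AT5G05270), a chalcone isomerase-like protein that is not on the list and was singled out after its values were seen, was 1.97 ± 0.37 below salted Col.

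Of 5 measured trichome genes, 2 were lower (TRY and AN, the latter with a difference of -0.51), 1 higher (SIM) and 2 not called (GIS and SPI). TRY (AT5G53200), an inhibitor of trichome fate, was at 8.33 and 8.09 in unsalted Col, 6.17 and 6.05 in salted Col and 4.73 and 5.00 in unsalted Col(gl), 1.25 ± 0.16 below salted Col (adjusted p = 0.000707) and 3.34 ± 0.16 below unsalted Col. GIS (AT3G58070), which promotes trichome initiation, was lowered by salt by 1.99 ± 0.29 and was at 5.55 and 5.50 in unsalted Col(gl) against 6.16 and 6.22 in salted Col, a difference of -0.66 ± 0.29 that was not called. SIM (AT5G04470), a cyclin-dependent kinase inhibitor that holds trichomes to 1 cell, had no called salt response and was 0.98 ± 0.14 higher in unsalted Col(gl) than in salted Col. It was at 7.45 and 7.46 against 6.51 and 6.45 and 6.70 and 6.52 in unsalted Col. In whole leaves, fewer cells of a type and less RNA per cell cannot be told apart.

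Another set of salt-lowered genes was not lowered in unsalted Col(gl). PDF1.2 (AT5G44420), a plant defensin induced by jasmonate and ethylene, was at 10.96 and 10.77 in unsalted Col, 7.23 and 7.05 in salted Col and 10.83 and 10.70 in unsalted Col(gl). Unsalted Col(gl) was 12.4-fold above salted Col (3.63 ± 0.15, adjusted p = 5.13e-06) and differed from unsalted Col by -0.10 ± 0.15. The probe set of PDF1.2b (AT2G26020) gave 10.76 and 10.74, 7.41 and 7.21 and 10.77 and 10.71, but its probes can bind other transcripts, so it may read PDF1.2 as well. Both were above salted Col with each array left out in turn. They were 2 of the 3 calls among 8 jasmonate genes, where 30.0% of all probe sets were called. The other call, the jacalin-related lectin JAL23 (AT2G39330), was 2.20 ± 0.69 lower and was lost when any of 9 arrays was left out, with differences of -2.22 to -1.20.

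Antioxidant, detoxification and photosynthesis genes held further cases. TAPX (AT1G77490), the thylakoid ascorbate peroxidase, was at 10.80 and 10.72 in unsalted Col, 10.01 and 9.96 in salted Col and 10.82 and 10.78 in unsalted Col(gl), 0.82 ± 0.09 above salted Col (adjusted p = 0.000315). CCS (AT1G12520), which delivers copper to superoxide dismutase, was by contrast at its salt-raised level, with 8.29 and 8.42, 9.77 and 9.75 and 9.84 and 9.80 (difference 0.06 ± 0.13, interval -0.24 to 0.36). GR1 (AT3G24170), a glutathione reductase, was 1.09 ± 0.11 below salted Col, at 9.32 and 9.22 against 10.36 and 10.35, and had no called salt response. Of the 8 antioxidant genes, 2 were higher, 1 lower and 5 not called, against 30.0% called over all probe sets. Among 13 glutathione transferase genes salt lowered 7 and raised none in Col, and unsalted Col(gl) was above salted Col in 3, below it in none and not called in 10, a share called that is under the 30.0% of all probe sets. GSTU18 (AT1G10360) was at 9.57 and 9.61, 8.25 and 8.50 and 9.23 and 9.21, 0.85 ± 0.17 above salted Col (adjusted p = 0.00648), and GSTU27 (AT3G43800) was 1.27 ± 0.12 above it and above unsalted Col by 0.75 ± 0.12.

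Of 11 nuclear photosynthesis genes, salt lowered 4 in Col, and unsalted Col(gl) was above salted Col in 2 and below it in none, with a median of 0.22. Salt lowered 21.1% of all probe sets in Col. Between unsalted Col(gl) and salted Col 30.0% of all probe sets were called, and 14.4% were higher. LHCB4.3 (AT2G40100), a minor light-harvesting protein of photosystem II, was at 12.17 and 12.02 in unsalted Col, 10.77 and 10.53 in salted Col and 11.62 and 11.68 in unsalted Col(gl). It was intermediate, 1.00 ± 0.11 above salted Col (adjusted p = 0.000305) and 0.45 ± 0.11 below unsalted Col. The other call, PSAN (AT5G64040), had a difference of 0.32 ± 0.09 that was lost when any of the 4 arrays compared was left out (0.29 to 0.35). PORB (AT4G27440), a protochlorophyllide reductase, was at its salt-raised level, with 11.37 and 11.38, 12.66 and 12.64 and 12.58 and 12.57 (difference -0.07 ± 0.10, interval -0.30 to 0.15). Of the 6 measured chlorophyll genes 4 were higher, where 14.4% of all probe sets were higher, and PORB and GSA1 (difference 0.03) were not called. The higher ones were CHLI2 (AT5G45930), HEMA2 (AT1G09940), NOL (AT5G04900) and CHLM (AT4G25080), by 0.33 ± 0.10 to 0.41 ± 0.13. None of these 4 calls was made with each array left out in turn. Of 69 plastid-encoded probe sets 1 was higher and 5 lower, with a median of 0.16, and the number called ranged from 1 to 49 over the alternatives tried. The low plastid signal of replicate 1 of salted Col enters these values directly. The mean level of the 69 was 8.76 on that array and 10.66 on replicate 2, against 9.81 and 9.82 in unsalted Col(gl). Unsalted Col(gl) thus lay above the first salted Col array and below the second, so these values set no direction for the list.

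**Figure D4:**
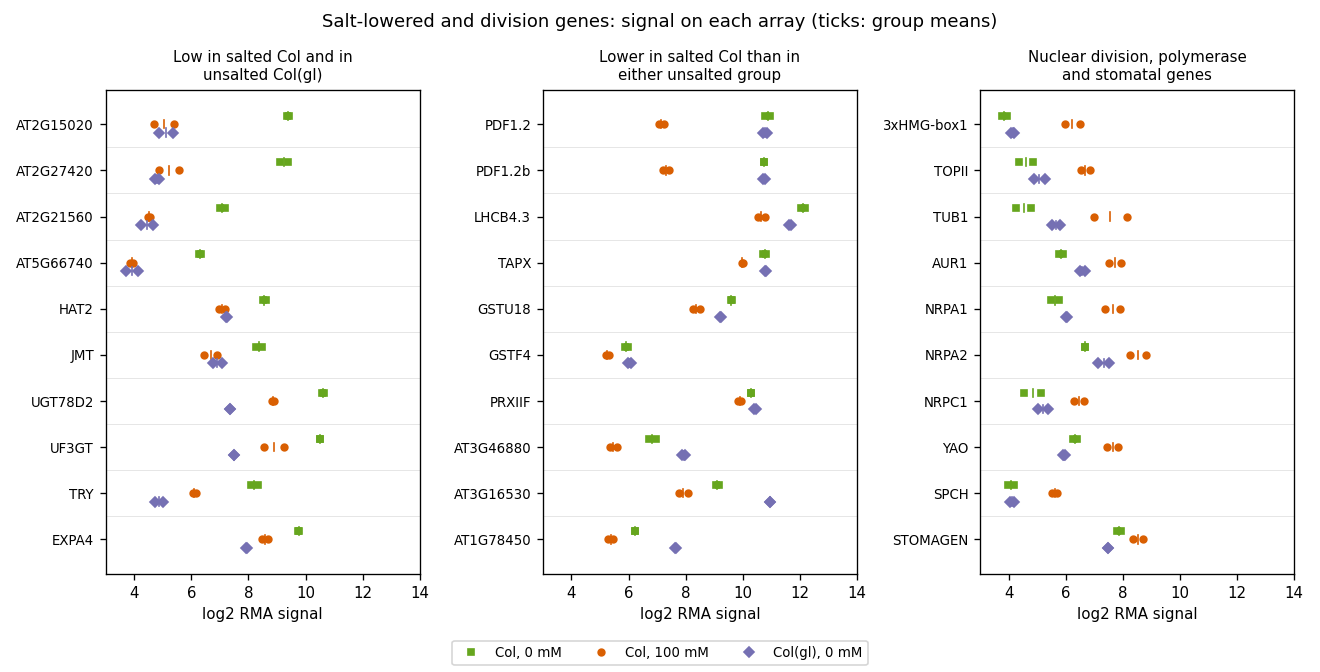
Log2 RMA signal (x axis) of 30 genes on each array (points, with group means as ticks), 1 row per gene. On the left, genes lowered by salt in Col are lower in unsalted Col(gl) than in salted Col or not called (AT2G15020 at 5.35 and 4.87). In the middle, unsalted Col(gl) lies above salted Col (PDF1.2 at 10.83 and 10.70 against 7.23 and 7.05). On the right, chosen division, polymerase and stomatal genes lie below salted Col (NRPA1 at 6.03 and 6.00 against 7.91 and 7.37). Many of these were singled out after their values were seen. Other members of the cell cycle, tubulin and stomatal lists were higher (SIM, TUB5) or not called (MUTE, FMA).

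The largest deficits of unsalted Col(gl) against salted Col also included genes of the endoplasmic reticulum bodies, which store defensive glucosidases. PYK10 (AT3G09260), their main beta-glucosidase and also a member of the root list, was at 9.99 and 7.73 on the 2 salted Col arrays. It was at 3.76 and 3.75 in unsalted Col(gl) and 4.0 and 3.76 in unsalted Col. NAI2 (AT3G15950), which is needed for the bodies to form, was at 8.50 and 6.20, 3.87 and 3.72 and 3.90 and 4.07. Both were much higher on replicate 1 of salted Col than on replicate 2, and under 4.42 on all arrays of the other 2 groups. PYK10 was at least 5.11 ± 0.89 lower (adjusted p = 0.00306; -3.98 without replicate 1 of salted Col, adjusted p = 0.0207) and NAI2 at least 3.55 ± 0.60 lower (adjusted p = 0.00254; -2.40 without it, adjusted p = 0.00259). Replicate 1 of salted Col is also the array with the low plastid signal, whose part in this spread was not tested.

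Several loci with no symbol were as far below salted Col and under or near background in unsalted Col(gl). AT1G05340 was at 4.50 and 4.18 in unsalted Col, 9.05 and 10.58 in salted Col and 5.06 and 4.68 in unsalted Col(gl), 4.94 ± 0.38 lower (adjusted p = 5.5e-05). The neighbouring loci AT4G27654 and AT4G27652 were at least 4.55 ± 0.44 and 3.44 ± 0.27 lower, the first at 4.30 and 4.25 against 9.45 and 8.20. AT1G10585, AT3G57010, AT1G09500 and AT2G37870 were lower by at least 3.71 ± 0.19, 3.45 ± 0.27, 3.40 ± 0.43 and 3.15 ± 0.35, and salt raised each of them in Ws as well, by 3.12 to 4.65. AT2G33850, AT5G01870, AT4G29030, AT1G62500 and AT4G22490 were among the 15 lowest, by 3.39 to 5.36, but their calls were lost without replicate 1 of salted Col or either unsalted Col(gl) array, and for AT1G62500 without any of 9 arrays, with differences of -3.49 to -2.42. Without replicate 1 of salted Col the differences were -5.20, -2.75, -2.90, -2.42 and -2.26 in that order.

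Of 3 measured salicylate and systemic defence genes 1 was higher and 2 were lower, GRX480 (AT1G28480), a glutaredoxin that binds TGA factors, by 1.94 ± 0.33 and BSMT1 (AT3G11480), the methyltransferase of salicylic acid, by at least 3.23 ± 0.54. BSMT1 was at 3.79 and 3.80 in unsalted Col(gl), 5.64 and 5.48 in unsalted Col and 5.89 and 8.15 in salted Col, so it was lower than in both, and salt moved it in Ws by 4.67 ± 0.54 but was not called in Col. SAG101 (AT5G14930), a partner of EDS1 in defence signalling, was 0.92 ± 0.15 above salted Col, at 6.62 and 6.73 against 5.68 and 5.83. Among further genes, UGT76E12 (AT3G46660), a glycosyltransferase singled out after its values were seen, was at least 3.36 ± 0.18 lower and near its unsalted Col level. The plantacyanin gene ARPN (AT2G02850) was 2.78 ± 0.46 lower, at 6.74 and 6.34 against 9.81 and 8.83. WSD1 (AT5G37300), a wax ester synthase, had no called salt response and was at least 2.43 ± 0.34 lower, at 3.44 and 3.69 against 6.16 and 5.83 in salted and 5.57 and 5.68 in unsalted Col. PYE (AT3G47640), a repressor of the iron-deficiency response, was 1.60 ± 0.20 lower, and the other 3 measured iron genes, BHLH101 (AT5G04150), ILR3 (AT5G54680) and AT3G13610, were not called (-0.54 ± 0.21, -0.03 ± 0.11 and -0.51 ± 0.24).

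Salt raised 7 of 11 cell cycle and histone genes in Col and lowered none, where it raised 16.4% and lowered 21.1% of all probe sets. Among all probe sets, 15.6% were lower in unsalted Col(gl) than in salted Col and 14.4% higher. Unsalted Col(gl) was below salted Col in 4 of the 11 and above it in 1 (SIM), and 6 were not called, with a median of -0.75, and SIM was the 1 call made with each array left out in turn. AUR1 (AT4G32830), a mitotic Aurora kinase, was at 5.91 and 5.77 in unsalted Col, 7.92 and 7.52 in salted Col and 6.50 and 6.67 in unsalted Col(gl), so that unsalted Col(gl) was intermediate. Its difference of -1.14 ± 0.37 (adjusted p = 0.0437) was lost when any of 10 arrays was left out, with differences of -1.34 to -0.93. The histone H2B genes HTB1 (AT1G07790) and HTB4 (AT5G59910) were 1.46 ± 0.35 and 0.75 ± 0.17 lower, and both calls were lost without replicate 1 of salted Col or either unsalted Col(gl) array (-1.55 to -1.21 and -0.79 to -0.56).

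A further set of mitosis genes was singled out after its values were seen. The mitotic chromosome protein 3xHMG-box1 (AT4G11080) was at 6.50 and 5.96 in salted Col, 4.19 and 4.09 in unsalted Col(gl) and 3.76 and 3.94 in unsalted Col, at least 2.09 ± 0.36 lower (adjusted p = 0.00269; -1.82 without replicate 1 of salted Col). TUB1 (AT1G75780), a beta-tubulin, was at 8.14 and 6.98 in salted Col, 5.52 and 5.80 in unsalted Col(gl) and 4.27 and 4.78 in unsalted Col, 1.90 ± 0.40 below salted Col, a call that was lost without replicate 1 of unsalted Col(gl) (-1.76, adjusted p = 0.0545). TOPII (AT3G23890), topoisomerase II, was 1.61 ± 0.38 lower, and lost its call without replicate 1 of salted Col or replicate 2 of unsalted Col(gl) (-1.45 and -1.43). 3xHMG-box2 (AT4G23800), the phragmoplast motor KINESIN-12B (AT3G23670), the cytokinesis kinase FU (AT1G50240) and the checkpoint protein BUB3.1 (AT3G19590) were 1.10 to 2.65 lower, and all 4 calls were lost without replicate 1 of salted Col or either unsalted Col(gl) array, where differences ran from -2.65 (3xHMG-box2) to -0.86 (BUB3.1). Replicate 1 of salted Col was above replicate 2 for each of these genes, as for PYK10. Of 9 tubulin and actin genes 2 were lower (TUB1 and TUB7 (AT2G29550)) and 1 higher (TUB5 (AT1G20010), by 0.55 ± 0.11), with a median of 0.00. The share called over all probe sets was 30.0%.

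RNA polymerase I and III subunits, also singled out after their values were seen, kept their calls with each array left out in turn. NRPA1 (AT3G57660), the largest subunit of polymerase I, which makes ribosomal RNA, was at 5.75 and 5.49 in unsalted Col, 7.91 and 7.37 in salted Col and 6.03 and 6.00 in unsalted Col(gl), 1.63 ± 0.17 below salted Col (adjusted p = 0.000214). NRPA2 (AT1G29940), its second subunit, was 1.20 ± 0.20 lower, and NRPC1 (AT5G60040) of polymerase III was 1.24 ± 0.21 lower. The nucleolar protein gene YAO (AT4G05410) was at 5.96 and 5.90 against 7.83 and 7.45 in salted and 6.38 and 6.24 in unsalted Col, 1.71 ± 0.15 below salted Col (adjusted p = 8.63e-05).

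Of 4 measured stomatal genes 2 were lower and 2 not called. STOMAGEN (AT4G12970), a peptide from the mesophyll that promotes stomata, was at 7.93 and 7.79 in unsalted Col, 8.72 and 8.35 in salted Col and 7.48 and 7.50 in unsalted Col(gl), 1.05 ± 0.15 below salted Col (adjusted p = 0.00101). SPCH (AT5G53210), SPEECHLESS, which starts the stomatal lineage, was at 3.99 and 4.18, 5.52 and 5.70 and 4.20 and 4.05, so at or under background without salt in both genotypes. Its difference of at least 1.48 ± 0.40 (adjusted p = 0.0225) was lost when any of the 4 arrays compared was left out (-1.58 to -1.39). MUTE (AT3G06120) and FMA (AT3G24140), which act later in the lineage, differed by -0.45 ± 0.34 and -0.04 ± 0.15. The auxin-conjugating GH3 genes WES1 (AT4G27260) and GH3.3 (AT2G23170) were 1.14 ± 0.23 and 1.80 ± 0.40 lower, the latter not called without replicate 1 of salted Col or replicate 2 of unsalted Col(gl) (-1.39 and -1.72). They were the only calls among 13 auxin genes, 11 of which had an interval within 2-fold.

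Some further genes were higher in unsalted Col(gl) than in salted Col. Those given with values for unsalted Col were above that group too. AT3G23550 was at 5.69 and 5.26 in unsalted Col, 6.21 and 5.95 in salted Col and 9.48 and 9.53 in unsalted Col(gl), 3.42 ± 0.17 above salted Col (adjusted p = 6.92e-06). AT3G62780 was at 5.36 and 5.76, 5.07 and 5.17 and 8.04 and 7.91, 2.86 ± 0.16 above. AT1G11380, AT4G16563 and AT5G25280 were 2.61 ± 0.25, 2.79 ± 0.48 and 2.69 ± 0.38 above salted Col, and the latter 2 differed between the salted Col arrays (5.63 and 6.66 and 7.95 and 9.38). AT2G30930 was raised by salt in Col by 0.91 ± 0.20 and was 2.53 ± 0.20 higher still. AT3G16530, AT3G46880 and AT1G78450 were lowered by salt in Col, by 1.19 ± 0.25, 1.37 ± 0.12 and 0.85 ± 0.15, and were above unsalted Col in unsalted Col(gl), by 1.85 ± 0.25, 1.09 ± 0.12 and 1.41 ± 0.15. For these genes unsalted Col(gl) lay on the other side of unsalted Col from salted Col. The serine carboxypeptidase-like SCPL34 (AT5G23210) and the ubiquitin ligase PUB24 (AT3G11840), singled out after their values were seen, were 2.45 ± 0.25 and 1.81 ± 0.12 above salted Col. AT1G67870, 2.54 above salted Col, rested on replicate 1 of salted Col (7.18 and 9.88 in salted Col) and lost its call when any of 9 arrays was left out (1.18 to 2.64), and AT4G38550, read by a probe set that shares probes with other transcripts, lost its call without that array or either unsalted Col(gl) array (1.61 to 2.47).

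**Figure D5:**
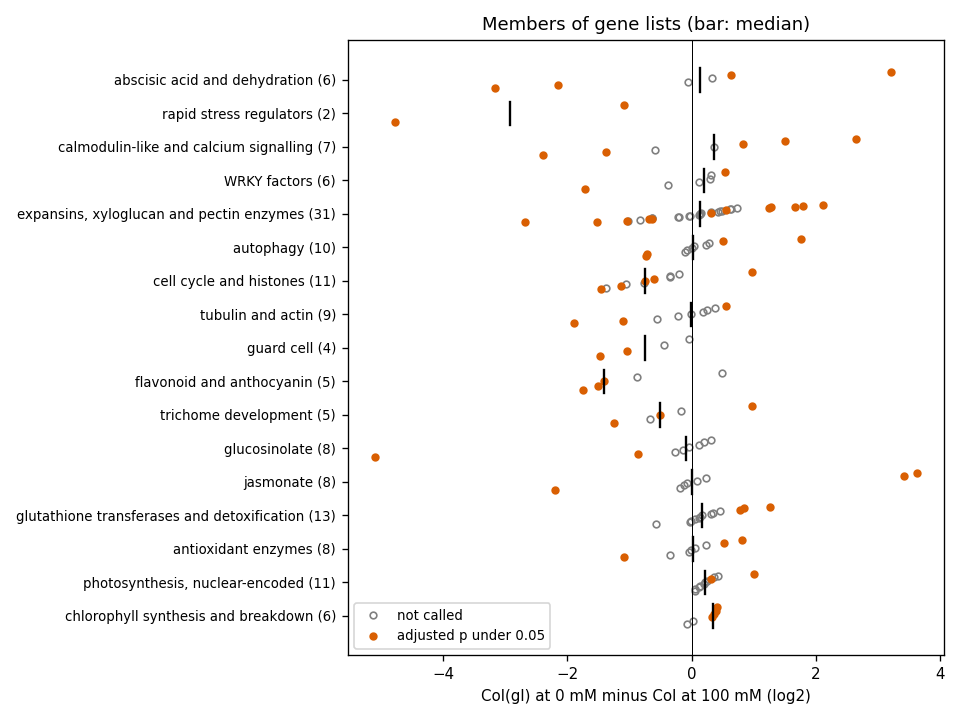
Log2 difference of unsalted Col(gl) minus salted Col (x axis) for the measured members of 17 gene lists, with filled points for called members, open points for the others, a black bar for each list's median, and the number of members in parentheses. Members of the dehydration, calmodulin-like and cell-wall lists lie on both sides of 0, while the called flavonoid genes lie below it and the called glutathione transferase, photosynthesis and chlorophyll genes above it. The called members were 3 of 5 flavonoid, 3 of 13 glutathione transferase, 2 of 11 photosynthesis and 4 of 6 chlorophyll genes, against 30.0% of all probe sets. None of the chlorophyll calls was made with each array left out in turn.

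The remaining lists held few measured members. Among 8 glucosinolate genes 2 were lower, PYK10 and AOP1 (AT4G03070) (-0.86 ± 0.19), the latter not called without replicate 1 of salted Col or replicate 1 of unsalted Col(gl) (-0.78 and -0.67), and the glucosinolate transporter GTR1 (AT3G47960) was at its salt-raised level (difference -0.04 ± 0.17, interval -0.42 to 0.35). Of 5 gibberellin, cytokinin and brassinosteroid genes 1 was higher (EXO) and 2 lower, the response regulator ARR15 (AT1G74890) by 1.50 ± 0.17 and the gibberellin receptor GID1A (AT3G05120) by 0.64 ± 0.17, which was not called without replicate 2 of either group (-0.52 and -0.53). Of 4 genes of folding in the endoplasmic reticulum, 1 was higher, BZIP60 (AT1G42990), a factor of the unfolded protein response, by 0.59 ± 0.12, and PDIL5-1 (AT1G07960) and CRT1b (AT1G09210) were lower by 0.89 ± 0.25 and 0.79 ± 0.19, both not called without replicate 1 of salted Col or either unsalted Col(gl) array (-1.05 to -0.47 and -0.83 to -0.60). No member was called among 4 ion transport genes, in which the guard-cell cation exchanger CHX20 (AT3G53720) was at 8.13 and 8.13 in unsalted Col, 6.53 and 6.80 in salted Col and 7.19 and 7.09 in unsalted Col(gl). Of 5 senescence genes 1 was higher (SAG101), 1 lower (WRKY53) and 3 not called. PGY1, the 1 measured gene for cytosolic ribosomal proteins, was lower (-0.82). APS3, the 1 measured gene on the phosphate, sulfur and nitrogen list, was higher (0.51). Neither call held in all alternatives tried. Of 4 copper and zinc genes, ARPN was lower and the zinc transporter ZIP9 (AT4G33020) higher by 0.39 ± 0.10, a call that was lost without either salted Col array or replicate 1 of unsalted Col(gl) (0.29 to 0.42). None was called among 3 heat-shock genes, 2 ethylene genes, 1 phloem gene, 1 NAC gene or 23 mitochondrion-encoded probe sets, nor among the 3 reference genes GAPC2 (AT1G13440), TUA6 (AT4G14960) and PEX4 (AT5G25760), which differed by -0.14 ± 0.10, -0.22 ± 0.13 and 0.10 ± 0.12.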

How the data were processed

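The 12 arrays, from leaf RNA, form 6 groups of 2 (3 genotypes, with NaCl at 0 or 100 mM). Per the submitters' processing notes the authors used GCOS and RMA, with versions not given in the sources used here. The deposited table holds log2 RMA values, used as deposited. Of 22746 probe sets tested, 13513 had 1 gene, 503 several and 8730 none, 13436 matched RefSeq (TAIR10.1) and 1580 had a symbol. Genes are named from 1-gene probe sets only.

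Tests came from limma 3.58.1 under R 4.3.3, run on all arrays together (lmFit with a mean for every group, then eBayes; 6 residual and 3.45 prior degrees of freedom), two-sided, Benjamini-Hochberg adjusted over all tested probe sets. The fit was tested on simulated data.

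Members, gene lists, Ws-chosen genes and the naming rule were chosen with earlier results of these data known. The rule covers the 15 largest called differences each way without overlap, up to 4 called members of each list, all members of lists of up to 5, and the largest Ws responses. Not every gene that the rule covers is described in the text. List members matched by a symbol that belongs to another gene were removed after seeing the matches. Where the text says so, genes were singled out after their values were seen. Alternatives were a replicate block, quantile normalization, a filter on dim probe sets, a trended robust prior, only the 4 arrays compared, and leaving out arrays.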

Additional observations from a re-analysis of the deposited data

Results flagged for a closer look

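For 2 genes among the largest salt responses of Ws, every salted Ws array lay on one side of the unsalted Ws arrays and every salted Col array on the other side of the unsalted Col arrays. AT1G47400 fell by 1.97 with salt in Ws and rose by 3.70 in Col, so that the Col response exceeded that of Ws by 5.67, and in unsalted Col(gl) it was 3.13 ± 0.44 below salted Col (adjusted p = 0.000972, limma). The plastid-encoded rpl16 fell by 2.01 in Ws and had a difference of 0.89 in Col that was not called, a gap of 2.90 between the genotypes, and in unsalted Col(gl) it was 1.78 ± 0.32 below salted Col (adjusted p = 0.00339, limma). Its signals in salted Col were 10.07 and 11.30, and the lower one is from the array with the low plastid-encoded median. Replicate 1 of salted Ws had the lowest plastid-encoded median of the 12 arrays (8.73), and rpl16 was at 9.31 on it and 9.66 on replicate 2. The part of these arrays in the rpl16 values was not tested. For both genes the difference between the genotypes was not tested.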

How the results depend on the processing

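Having 2 arrays in each group limits all counts given here. The count of probe sets called between unsalted Col(gl) and salted Col was 6823, against 4314 with only the 4 arrays compared and 3330 to 8124 with 1 array left out; the lowest counts came without replicate 1 of salted Col (3868) or without replicate 1 (3330) or 2 (3695) of unsalted Col(gl). The salt response of Col gave 5263 to 9622 calls, with 5263 without replicate 1 of unsalted Col, and unsalted Col(gl) against unsalted Col gave 3716 to 6298. Of the genes chosen by Ws, those raised in Ws were called lower in 273 to 402 and higher in 103 to 171 cases, and those lowered in Ws were called higher in 53 to 95 and lower in 30 to 57. These ranges are for 1 array left out, and other alternatives went beyond some of them. With only its own 4 arrays, unsalted Col(gl) against unsalted Col gave 7389 calls. Quantile normalization gave 6137 calls between unsalted Col(gl) and salted Col, leaving out the dimmest probe sets 6420, and a trended robust prior 6770. Leaving out replicate 1 of both salted Ws and salted Col, an alternative chosen after seeing the data, gave 7014, and plastid-encoded calls then numbered 49 against 6. Replicate numbers were not taken as pairs, since the deviations of same-numbered arrays correlated at -0.352 to 0.697 between groups and not above 0.1 in every pair of groups, although those of salted Ws and salted Col moved together (0.697), and a fit with the replicate block gave 6892 calls. Of 152 named probe sets that were called, 93 were called in all 18 alternatives, and none changed direction in any of them. Of the 229 that were not called, 84 were called in at least 1 alternative, so that a level close to that of salted Col rests on its interval. The cause of these shifts was not tested.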
